A study of Mus musculus with 40 samples.

Results

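The organic ion and drug transporters of the mouse kidney were taken as all protein-coding genes whose symbol begins with Slco, Slc22a, Slc47a, Abcb or Abcc, together with Abcg2. The rule uses names alone. It found 62 genes among the 55359 gene identifiers of the count files: 14 Slco, 25 Slc22a, 2 Slc47a, 10 Abcb and 10 Abcc genes, and Abcg2. Enough reads for a test were present for 51 of them.

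These families carry drugs, toxins, hormones and metabolic wastes across cell membranes. In the proximal tubule, uptake carriers of the Slc22a family (organic anion transporters, OATs, and organic cation transporters, OCTs) and of the Slco family (organic anion transporting polypeptides, OATPs) bring compounds into the cell, and multidrug and toxin extruders (Slc47a, MATEs) and ATP-driven pumps (Abcb, Abcc, Abcg2) move them out, so that solutes pass from blood to urine. Several Slc22a and Slco genes are known to be expressed at different levels in male and female rodent kidneys. TCDD (2,3,7,8-tetrachlorodibenzo-p-dioxin) is a ligand of the aryl hydrocarbon receptor, a transcription factor that binds dioxin response elements with the core GCGTG.

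RNA was sequenced from right kidneys of 40 male C57BL/6 mice without any engineered allele named in the labels. The 8 groups of 5 received TCDD at 0 (sesame oil alone, called vehicle), 0.03, 0.1, 0.3, 1, 3, 10 or 30 µg/kg in 0.1 mL of sesame oil, which every mouse received. Oral gavage was repeated every 4 days, 7 times in all, from 30 days of age, and tissue was collected at 58 days, 28 days after the start. Each preparation used about 100 mg of kidney, so every value is an average over all cell types of the piece. Libraries are named by dose and a replicate number given here in order of deposition, which pairs nothing across groups.

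Libraries held 15278423 to 25575317 gene counts, and no pair of replicates agreed within sampling noise. The labelled tissue was checked with marker lists: genes of the proximal tubule summed to 13695 to 18688 counts per 1000000 gene counts (CPM) for the first and second segments (S1 and S2, 12 genes) and 2904 to 6049.6 CPM for the third (S3, 12 genes) in vehicle libraries, while 9 hepatocyte genes summed to 86.2 to 241 CPM, of which Ttr alone averaged 122 CPM. As a check of exposure, 10 target genes of the receptor, among them Cyp1a1, were summed, and their level was 99.5 to 115 CPM in vehicle and 2438 to 3552 CPM at 30 µg/kg. The submitters' sample numbers fall into 2 runs, 1 to 27 and 28 to 53, that each hold every dose, and the 22 transporters called at 30 µg/kg were the same 22 with the run as a covariate. Further, 2 libraries at 10 µg/kg (replicates 3 and 4) have file names that differ in form from the rest.

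Some libraries stood apart. Vehicle replicates 1 and 2 had S3 sums of 2904 and 3147 CPM, against 5587 to 6049.6 CPM in vehicle replicates 3 to 5 and 5045 to 6063 CPM at 3 µg/kg. Low S3 sums were also found at 30 µg/kg, with 4641, 2966, 1644, 2746 and 3065 CPM in replicates 1 to 5. At that dose 6 of the 12 S3 genes were called lower and 1 higher. Mean levels went from 1494 to 677 CPM for Atp11a and from 578 to 236 CPM for Slc7a13, vehicle first. Slc5a1 (84.7 to 90.5 CPM), Slc5a10 (149 to 182 CPM) and Slc3a1 (423 to 388 CPM) were not called. Vehicle SDs of Slc5a1 and Slc5a10 were 9.64 and 15.8 CPM. The sums therefore do not stand for every S3 gene. Vehicle replicates 1 and 2 had higher S1 and S2 sums than the other vehicle libraries (18366, 18688, 13695, 14032 and 14366 CPM in replicates 1 to 5). At 30 µg/kg the S1 and S2 sums were 13458, 17850, 17225, 11009 and 10551 CPM. In the same order, 8 inner medulla genes summed to 787, 644, 952, 1083 and 1058 CPM in vehicle. At 30 µg/kg they summed to 1054, 588, 484, 802 and 1052 CPM. Several transporters that were low in libraries with low S3 sums are described with and without them below.

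Another pair of libraries, replicate 1 of the 0.03 µg/kg group and replicate 4 of the 1 µg/kg group, carried adrenal cortex transcripts. A list of 8 adipocyte and adrenal cortex genes summed to 468 and 538 CPM in them, against 9.27 to 144 CPM in the other 38 libraries. The steroid synthesis genes Star (178 and 185 CPM, at most 14 elsewhere), Cyp11a1 (152 and 156 CPM, at most 6.89 elsewhere), Cyp11b1 (89.4 and 95.6 CPM, at most 4.09 elsewhere) and Cyp11b2 (5.53 and 3.81 CPM, at most 0.643 elsewhere) were high in both, while the 4 adipocyte genes lay within the range of the other libraries. Without these libraries 23 transporters were called at 30 µg/kg, all 22 of the full comparison and Abcb1b. The call of Abcc9 at 3 µg/kg, that of Abcb10 at 10 µg/kg (adjusted p = 0.0523) and the trend of Slc22a30 (adjusted p = 0.0619) were lost.

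In vehicle kidneys the summed level of the family rested on a few carriers. Per kilobase of exon, Slc22a12 (URAT1, urate reabsorption from the lumen) came first at 458 ± 47.2 CPM per kb (mean ± SD, n = 5). Slc22a18, an orphan member encoded in an imprinted region, had 349 ± 23.0, Slc22a6 (OAT1, basolateral uptake of organic anions) 278 ± 20.7 and Slc47a1 (MATE1, luminal exit of organic cations) 252 ± 4.63 CPM per kb. These first 4 held 49.2% of the summed CPM per kb of all 62, and neighbouring means among them differed by more than the larger SD of the pair. Further down, Slc22a8 (OAT3) stood at 188 ± 36.2 and Slc22a2 (OCT2) at 141 ± 18.0 CPM per kb. The first place of Slc22a12 is uncertain, because 30.1% of its exonic bases overlap Nrxn2 on the opposite strand and the counts used do not separate strands.

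The most abundant pumps were Abcg2 (BCRP) at 57.6 ± 3.68 and Abcc2 (MRP2) at 50.5 ± 4.24 CPM per kb, and the most abundant OATPs were Slco1a6 at 59.2 ± 5.49 and Slco1a1 at 36.2 ± 17.8 CPM per kb. Abcc4 (MRP4), the strongest responder among the pumps below, stood at 9.08 ± 2.10 CPM per kb, rank 26. At the other end, 11 members had too few counts to test, with at most 13 counts in any library: Abcb5, Abcb11, Abcc12, Slc22a16, Slc22a20, Slco1a5, Slco1b2, Slco1c1, Slco5a1, Slco6c1 and Slco6d1. Of these, 5 had no count in any of the 40 libraries (Abcb5, Slc22a16, Slco1a5, Slco6c1 and Slco6d1). Abcb11 (bile salt export) and Slco1b2 are textbook hepatocyte transporters.

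**Figure D1:**
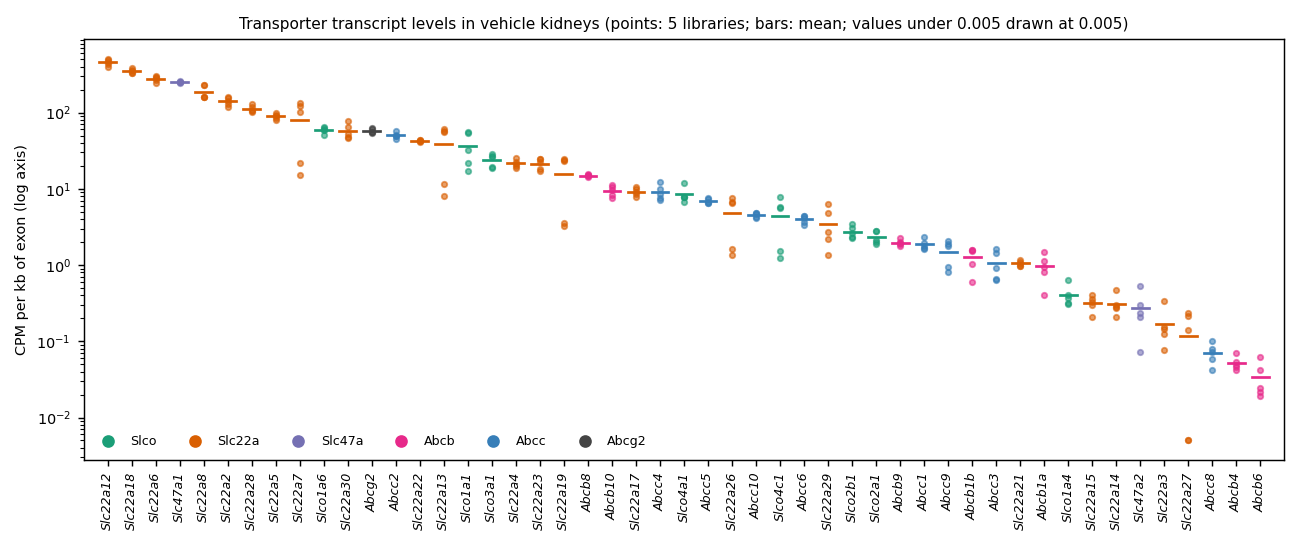
CPM per kb of exon (log axis) of 49 of the 51 transporters that passed the filter on low counts, in the 5 vehicle libraries, in order of their mean; points are libraries, bars are means, and values under 0.005, drawn at 0.005, belong to libraries with no count. Slc22a12, Slc22a18 and Slc22a6 stand at the top, and the wide spreads of Slc22a7, Slc22a13, Slc22a19, Slc22a26 and Slco4c1 hold low values in vehicle replicates 1 and 2.

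Transporters changed mainly at the highest dose. Each dose was compared with vehicle by edgeR's quasi-likelihood test with Benjamini-Hochberg adjustment over 17345 genes, called at an adjusted p under 0.05. The 7 dose comparisons share the same 5 vehicle libraries. No transporter was called at 0.03, 0.1, 0.3 or 1 µg/kg, by edgeR or by DESeq2, where 0%, 0%, 0.00577% and 0.513% of all tested genes were called, and 7, 9, 6 and 3 of 51 had an unadjusted p under 0.05. At 3 µg/kg 1 of 51 was called against a background of 1.09%, and it was higher (background 1.03% higher and 0.0634% lower). At 10 µg/kg 6 of 51 were called (background 4.82%), of which 4 were higher (Abcc4, Abcc9, Slco2a1 and Slco2b1; background 3.82%) and 2 lower (Slc22a4 and Abcb10; 0.997%). The highest dose had 22 of 51 (background 15.9%). The median log2 fold change at 30 µg/kg was 0.089 over the 51 transporters and 0.0111 over all genes.

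At 30 µg/kg, 10 transporters rose (8.39% of all genes rose) and 12 fell (7.55%). By family, 4 of 9 tested Abcc genes rose and none fell, while of 23 tested Slc22a genes 3 rose and 7 fell. Of 8 Slco genes 2 rose and 3 fell, of 8 Abcb genes 1 rose and 1 fell, Slc47a1 fell, and neither Slc47a2 nor Abcg2 was called. Counts of libraries give a picture with no model: at 30 µg/kg all 5 libraries lay above all 5 vehicle libraries for 3 transporters (Abcc4, Slc22a27 and Slco2b1; 3.59% of all genes) and below them for 8 (Slco1a1, Slco3a1, Slc22a4, Slc22a6, Slc22a18, Slc22a22, Slc22a30 and Slc47a1; 2.83%). The same held at 10 µg/kg for 4 above vehicle (Abcc4, Abcc9, Slco2a1 and Slco2b1; 4.32% of all genes) and 3 below it (Slc22a22, Slc22a28 and Slc47a1; 1.82%). When the fit was limited to the 10 libraries of vehicle and 30 µg/kg, 11 transporters were called (the share of all genes is not given for that fit). Abcc2, Abcc3, Abcc4, Slc22a14, Slco2a1 and Slco2b1 were higher, and Slc22a4, Slc22a6, Slc22a18, Slc47a1 and Slco1a6 lower. The other 11 were not called in that smaller fit, with adjusted p-values of 0.0549 for Abcb1a, 0.0621 for Slc22a2, 0.065 for Slco3a1, 0.111 for Abcb10 and 0.14 to 0.269 for Abcc9, Slco1a1, Slc22a5, Slc22a22, Slc22a28 and Slc22a30, and Slc22a27 did not pass its filter on low counts.

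**Figure D2:**
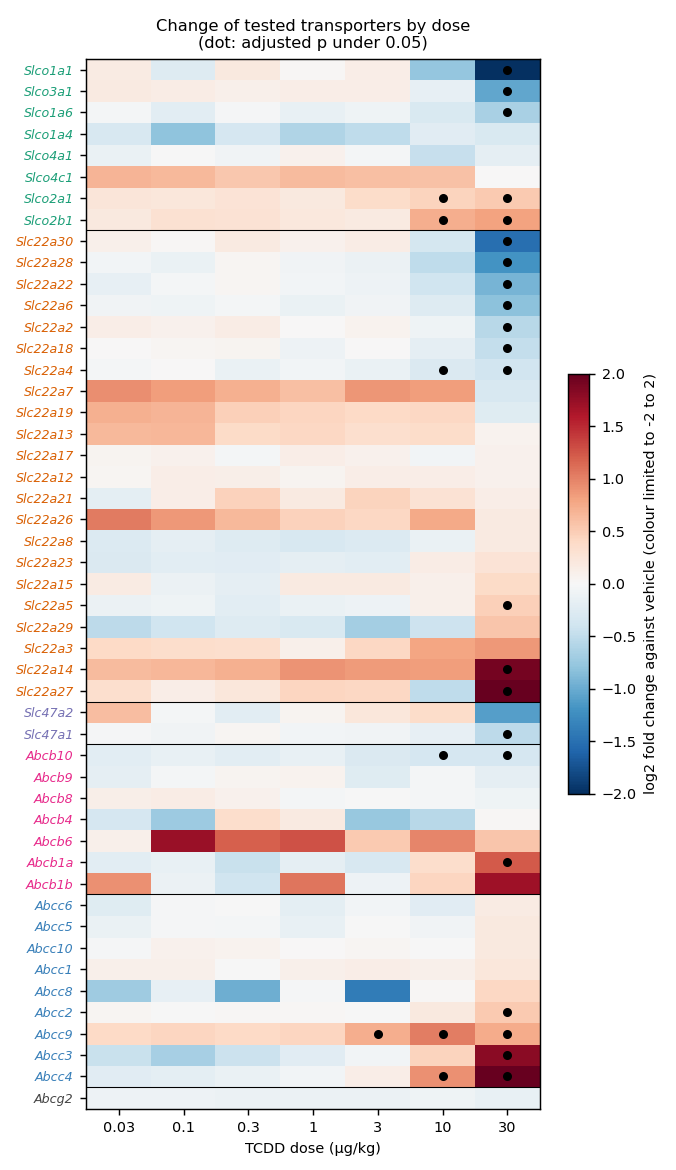
Log2 fold change against vehicle of 49 of the 51 tested transporters (rows, grouped by family) at each dose (columns, µg/kg), with the colour limited to -2 and 2 and dots for an adjusted p under 0.05. Dots are absent up to 1 µg/kg, and 22 of the 29 dots lie in the column of 30 µg/kg.

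Among the ATP-driven pumps, Abcc4 (MRP4, luminal export of urate, cyclic nucleotides and anionic drugs) had the strongest rise, and its lowest called dose was 10 µg/kg. Vehicle libraries held 78.4, 63.6, 45.2, 48.1 and 54.8 CPM (replicates 1 to 5). The 25 libraries at 0.03 to 3 µg/kg ranged from 39.0 to 73.6 CPM with a median of 55.3. At 10 µg/kg the values were 97.5, 151, 91.3, 106 and 103 CPM and at 30 µg/kg 149, 197, 576, 448 and 345 CPM. All libraries at both doses lay above the highest vehicle library, and replicates 3, 4 and 5 at 30 µg/kg above every other library. The mean rose from 58.0 ± 13.4 CPM in vehicle to 109.8 ± 23.7 at 10 µg/kg (log2 fold change 0.92, SE 0.22, adjusted p = 0.00907) and 343 ± 176 at 30 µg/kg (log2 fold change 2.56, SE 0.23, adjusted p = 1.36e-09). The call at 10 µg/kg was lost without replicate 2 of that dose (adjusted p = 0.0536).

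The Abcc4 promoter is shown because it was the sole member with the longer form of the dioxin response element, TNGCGTG, within 250 bases before to 50 bases after a transcription start in the RefSeq promoter table (build GRCm38.p6). Sequences are the 250 bases before the start, 5′ to 3′ on the gene's strand, which is the minus strand for the genes shown here. Capitals mark the core GCGTG or its reverse complement CACGC. The matches of Abcc4 lie 101 and 94 bases before the start, both on the reverse strand, and the longer form contains the first. A second start of Abcc4 in the table, at chr14:118676932-118677181, had no match. Slco1a1, the transporter with the largest fall, is given for comparison and has no match in this window.
Abcc4, chr14:118706220-118706469: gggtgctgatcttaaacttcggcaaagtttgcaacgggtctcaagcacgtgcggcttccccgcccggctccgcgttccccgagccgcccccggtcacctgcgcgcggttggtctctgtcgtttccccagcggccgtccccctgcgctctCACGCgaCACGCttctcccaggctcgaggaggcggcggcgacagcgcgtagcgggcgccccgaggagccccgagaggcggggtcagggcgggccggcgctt
Slco1a1, chr6:141946963-141947212: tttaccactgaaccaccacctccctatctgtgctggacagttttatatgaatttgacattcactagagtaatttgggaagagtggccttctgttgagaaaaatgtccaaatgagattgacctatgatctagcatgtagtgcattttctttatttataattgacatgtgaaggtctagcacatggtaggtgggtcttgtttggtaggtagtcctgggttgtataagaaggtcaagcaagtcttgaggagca

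Abcc3 (MRP3, basolateral export of glucuronides) also rose. Its vehicle libraries held 8.24, 9.27, 3.76, 3.68 and 5.16 CPM, the lower doses 3.32 to 7.63 CPM with a median of 4.75, and the libraries at 10 µg/kg 8.58, 8.26, 5.55, 9.77 and 8.94 CPM. The highest dose gave 8.63, 15.4, 21.0, 29.9 and 30.5 CPM. Replicate 1 at 30 µg/kg lay within the vehicle range, and the other 4 above it (log2 fold change 1.81, SE 0.25, adjusted p = 8.61e-07). At 10 µg/kg Abcc3 was not called, with an adjusted p of 0.381, and it was called higher there without vehicle replicates 1 and 2 (log2 fold change 0.97, adjusted p = 0.0289), the vehicle libraries with the highest Abcc3.

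Abcc2 (MRP2, luminal export of conjugates) had a smaller rise at 30 µg/kg, with 453, 587, 853, 670.1 and 529 CPM against 388 to 488 CPM in vehicle (log2 fold change 0.52, SE 0.10, adjusted p = 0.00013). Replicate 1 again lay within the vehicle range. Abcc9 (SUR2), the sulfonylurea receptor subunit of potassium channels in muscle and vessel wall cells, was the single transporter called at 3 µg/kg (log2 fold change 0.72, SE 0.19, adjusted p = 0.0393). It was higher than all vehicle libraries in all 5 libraries at 3 and at 10 µg/kg, and in 3 of 5 at 30 µg/kg. Its vehicle libraries held 7.95, 6.79, 14.9, 17.1 and 15.7 CPM, and the groups at 3, 10 and 30 µg/kg averaged 20.5 ± 1.93, 25.3 ± 2.94 and 20.9 ± 6.63 CPM. Its call at 30 µg/kg was lost without vehicle replicates 1 and 2, its lowest libraries (log2 fold change 0.39, adjusted p = 0.118), and it was kept when replicates 2 and 3 at 30 µg/kg, the lowest of that dose, were left out as well (0.67, adjusted p = 0.00127). The call at 10 µg/kg was kept without vehicle replicates 1 and 2 (0.67, adjusted p = 0.0128). The call at 3 µg/kg was lost without vehicle replicate 1, without vehicle replicate 2 or without any single library at 3 µg/kg, with adjusted p-values of up to 0.172. Abcc1, Abcc5, Abcc6, Abcc8 and Abcc10 were not called at any dose.

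Slco2b1 (OATP2B1) and Slco2a1, the prostaglandin transporter known from endothelial cells, rose at 10 and 30 µg/kg together with Abcc9. Slco2b1 was at 14.1, 15.6, 13.4, 18.5 and 20.5 CPM in vehicle, at 13.5 to 24.8 CPM with a median of 19.5 over the lower doses, at 26.0, 30.7, 22.5, 26.6 and 29.7 CPM at 10 µg/kg and at 22.4, 33.3, 30.2, 29.2 and 27.7 CPM at 30 µg/kg. Neither of the 2 highest doses overlapped with vehicle (log2 fold change 0.73, SE 0.13, adjusted p = 0.000114 at 10 µg/kg and log2 fold change 0.80, SE 0.13, adjusted p = 1.42e-05 at 30 µg/kg). Slco2a1 rose from 31.5 ± 5.98 CPM to 42.6 ± 2.51 CPM at 10 µg/kg (log2 fold change 0.44, SE 0.11, adjusted p = 0.00899) and 44.9 ± 8.42 CPM at 30 µg/kg (log2 fold change 0.52, SE 0.11, adjusted p = 0.000633). Its call at 10 µg/kg was lost without vehicle replicate 1 (adjusted p = 0.0529) and without vehicle replicates 1 and 2 together (log2 fold change 0.29, adjusted p = 0.25).

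Marker genes of endothelium and macrophages moved at these doses too, and those of macrophages at lower doses already. No list covered muscle cells or other vessel wall cells, so the cells named above for Abcc9 were not followed. Of 8 macrophage and leukocyte genes 2 rose at 1 µg/kg, 6 at 3 µg/kg and 6 at 10 µg/kg, and of 9 endothelial genes none rose at 1 µg/kg, 2 at 3 µg/kg and 7 at 10 µg/kg. Of the 9 endothelial genes 6 rose at 30 µg/kg and none fell, and their summed level went from 646 to 785 CPM in vehicle to 871 to 964 at 10 µg/kg and 870.2 to 1018 at 30 µg/kg. The defining gene Cdh5 rose from 34.7 ± 4.57 to 54.4 ± 5.88 CPM. Of the 8 macrophage and leukocyte genes 7 rose at 30 µg/kg and none fell, with sums of 82.4 to 142 CPM in vehicle, 149 to 221 at 1 µg/kg, 163 to 203 at 3 µg/kg, 203 to 237 at 10 µg/kg and 160.5 to 229 at 30 µg/kg. The defining gene Adgre1 rose from 3.18 ± 0.599 to 8.61 ± 2.96 CPM. No marker of either list had a group mean of 0 in vehicle or at 30 µg/kg. In whole tissue, more cells of a type and more RNA per cell cannot be told apart, and the part of these cells in the rise of Abcc9, Slco2a1 and Slco2b1 was not tested.

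P-glycoprotein, the luminal drug efflux pump, is encoded by Abcb1a and Abcb1b in the mouse. Abcb1a held 8.07, 6.28, 4.49, 2.24 and 5.16 CPM in vehicle, 2.47 to 6.84 CPM with a median of 4.48 over the lower doses, 5.88, 8.45, 5.44, 6.43 and 7.22 CPM at 10 µg/kg and 7.04, 12.6, 21.6, 11.4 and 9.09 CPM at 30 µg/kg. Of the libraries at 30 µg/kg, 4 lay above all vehicle libraries, and replicate 3 was the highest of all 40 (log2 fold change 1.22, SE 0.27, adjusted p = 0.000848). Abcb1b had a larger fitted change with a larger error and was not called (log2 fold change 1.69, SE 0.64, adjusted p = 0.0682), with 12.5, 12.6, 8.34, 4.80 and 12.1 CPM in vehicle and 11.8, 26.2, 58.9, 42.2 and 24.7 CPM at 30 µg/kg. DESeq2 called it (adjusted p = 0.032), as did edgeR without replicate 1 at 30 µg/kg (adjusted p = 0.0382). For Abcb1b the libraries with adrenal transcripts were far above the rest: replicate 1 at 0.03 µg/kg had 66.6 CPM and replicate 4 at 1 µg/kg 77.8 CPM, above every library at 30 µg/kg. Without them Abcb1b was called at 30 µg/kg (log2 fold change 1.70, SE 0.31, adjusted p = 0.000246) and for the trend (0.22 log2 units per dose step, adjusted p = 0.000465). The part of adrenal tissue in these values was not tested beyond that fit. Reads can be assigned to the wrong copy, since 9.23% of the 100-base windows of Abcb1a transcripts and 6.04% of those of Abcb1b recur in another gene.

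Abcg2, which exports urate and sulfate conjugates, was not called at 30 µg/kg (log2 fold change -0.15, SE 0.08, adjusted p = 0.259). Its libraries at 30 µg/kg, 416, 525, 527, 337 and 316 CPM, lay on both sides of the vehicle range of 435 to 509.7 CPM. It was called lower without replicate 2 (adjusted p = 0.0418) or replicate 3 (adjusted p = 0.0385) of that dose, and without these and vehicle replicates 1 and 2 together (log2 fold change -0.34, adjusted p = 0.00209). Abcb10, a mitochondrial inner membrane transporter linked to heme synthesis, fell at 10 µg/kg (log2 fold change -0.34, SE 0.10, adjusted p = 0.0478) and 30 µg/kg (log2 fold change -0.34, SE 0.11, adjusted p = 0.0183). Neither call held without vehicle replicates 1 and 2, its highest vehicle libraries (log2 fold change -0.19, adjusted p = 0.535 at 10 µg/kg and -0.20, adjusted p = 0.3 at 30 µg/kg). At 30 µg/kg the call was also lost without vehicle replicate 1, vehicle replicate 2 or replicate 4 of the dose alone (adjusted p = 0.062 to 0.0863), and at 10 µg/kg 7 of 10 such omissions ended it (adjusted p up to 0.192). Abcb8, also mitochondrial, had a log2 fold change of -0.09 at 30 µg/kg and was not called there, and it fell slightly over the dose series (-0.02 log2 units per dose step, adjusted p = 0.0209).

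**Figure D3:**
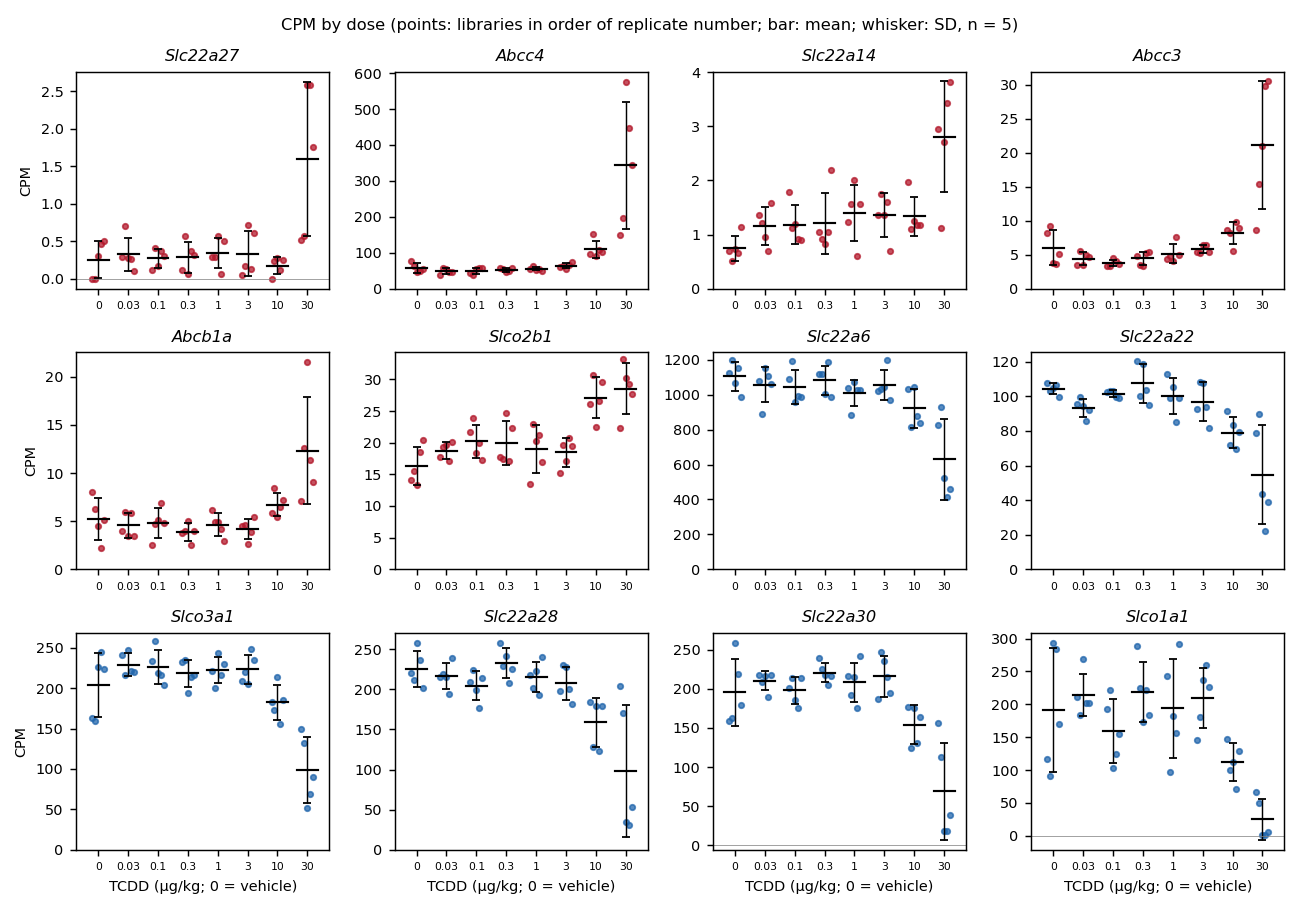
CPM of the 12 called transporters with the largest change at 30 µg/kg, by TCDD dose (0 is vehicle); points are libraries in order of replicate number, bars are means and whiskers SD (n = 5), red for a rise and blue for a fall. Most panels are flat up to 3 µg/kg, and at 30 µg/kg replicates 3, 4 and 5 lie farther from vehicle than replicates 1 and 2 for Abcc4, Slc22a6, Slc22a22, Slco3a1, Slc22a28, Slc22a30 and Slco1a1.

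Of the uptake carriers for organic anions, Slc22a6 (OAT1), the classical carrier of p-aminohippurate, fell at 30 µg/kg. Vehicle libraries held 1125, 1199.9, 1067, 1155 and 987 CPM, those at 0.03 to 3 µg/kg 886 to 1202 CPM with a median of 1038, and those at 10 µg/kg 1035, 816, 1046, 879 and 835 CPM. At 30 µg/kg the values were 826, 930.1, 521, 414 and 458 CPM, all below the lowest vehicle library (log2 fold change -0.81, SE 0.14, adjusted p = 4.63e-05). Slc22a8 (OAT3), which shares many substrates with OAT1 and sits on the same membrane, was not called, with 664, 1008, 1084, 799 and 597 CPM at 30 µg/kg and 888, 891, 634, 635 and 626 CPM in vehicle (log2 fold change 0.18, SE 0.12, adjusted p = 0.346). Its highest vehicle libraries were replicates 1 and 2, and without them it was called higher (log2 fold change 0.39, adjusted p = 0.0248).

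The log2 ratio of Slc22a6 to Slc22a8 compares the pair within each library. It ran from 0.34 to 0.86 in vehicle and from -1.06 to 0.31 at 30 µg/kg, with no overlap, and its mean fell by 1.05 (exact two-sided permutation test, p = 0.00794, the smallest that 5 against 5 libraries allow, 0.0106 after adjustment over 4 such pairs). The pairs were chosen after their values were seen. The p-value and its adjustment over 4 chosen pairs do not account for that choice, so they cannot serve as a test. The values describe the libraries alone. With vehicle replicates 3 to 5 alone as the reference the difference was -1.20.

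Slc22a7 (OAT2) spread widely between libraries of a group and was not called (log2 fold change -0.32, SE 0.43, adjusted p = 0.696). It was at 31.9, 45.9, 284, 254 and 213 CPM in vehicle replicates 1 to 5 and at 315, 76.9, 22.1, 138 and 109.8 CPM at 30 µg/kg, against 201 to 376 CPM with a median of 290.2 over the lower doses. Slc22a13 (OAT10), Slc22a19 (OAT5), Slc22a26 and Slco4c1 had the same low libraries, vehicle replicates 1 and 2 and replicates 2 and 3 at 30 µg/kg. These 4 and the S3 list were put together after their values were seen. The match with the S3 list is partial. Replicates 4 and 5 at 30 µg/kg also had low S3 sums (2746 and 3065 CPM). There Slc22a7 and Slc22a19 lay below vehicle replicates 3 to 5, while Slc22a13 did not, and Slco4c1 held 22.7 and 35.2 CPM. Vehicle replicates 1 and 2 and replicates 2 and 3 at 30 µg/kg also had the highest S1 and S2 sums of their groups. Slc22a19 was at 19.1, 17.6, 129, 132 and 126 CPM in vehicle and at 138, 45.7, 18.7, 83.3 and 73.8 CPM at 30 µg/kg, and Slc22a13 at 16.2, 23.3, 110.4, 115 and 121 and 93.8, 40.6, 37.3, 115 and 117 CPM. Without vehicle replicates 1 and 2, Slc22a19 was called lower at 30 µg/kg (log2 fold change -0.84, adjusted p = 0.0478). The other 4 were called neither with nor without them, and 3 changed sign. Slco4c1 (OATP4C1) had a log2 fold change of 0.02 with all libraries and of -0.53, adjusted p = 0.233 without these 2, Slc22a13 of 0.07 and of -0.52, adjusted p = 0.131, and Slc22a26 of 0.18 and of -0.37, adjusted p = 0.517. The log2 fold change of Slc22a7 went from -0.32 to -0.92, adjusted p = 0.105. With replicates 2 and 3 at 30 µg/kg left out as well, none of the 5 was called, and their log2 fold changes ran from -0.42 for Slc22a7 to -0.01 for Slc22a26. The part of S3 content in these values was not tested.

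**Figure D4:**
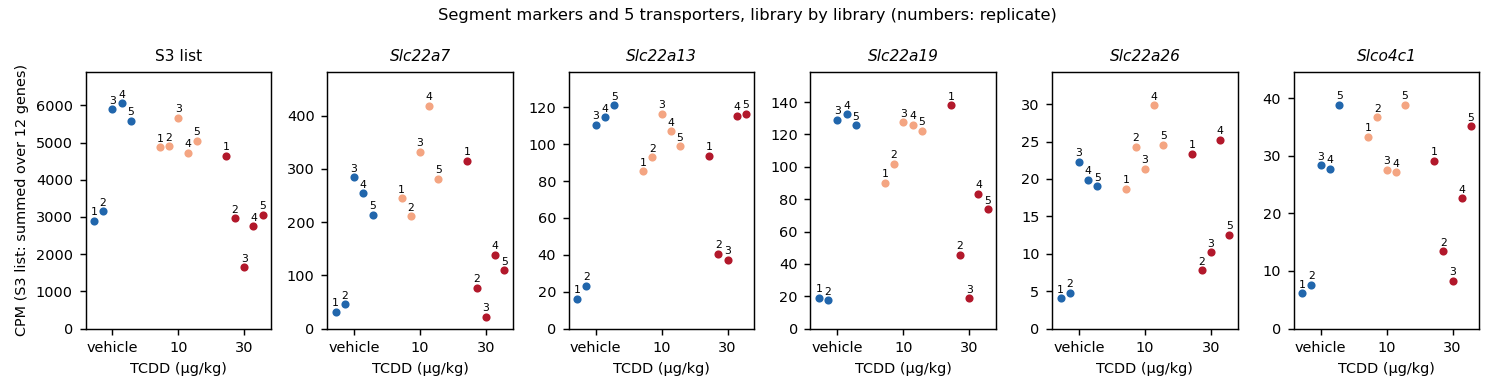
Summed CPM of 12 S3 proximal tubule marker genes and CPM of 5 transporters in each library of the vehicle, 10 and 30 µg/kg groups; numbers are replicates. Vehicle replicates 1 and 2 lie far below vehicle replicates 3 to 5 in all 6 panels, and replicates 2 and 3 at 30 µg/kg are low in most. Replicates 4 and 5 at 30 µg/kg are low in the S3 list as well, but not in Slc22a13.

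Slc22a22, the kidney prostaglandin carrier OAT-PG, had a narrow vehicle range and fell at 30 µg/kg. Its libraries held 108, 103, 105, 107 and 99.7 CPM in vehicle, 81.6 to 120.5 CPM with a median of 99.4 over the lower doses, 91.4, 71.6, 83.2, 69.4 and 79.3 CPM at 10 µg/kg and 79.0, 90.0, 43.8, 22.4 and 38.7 CPM at 30 µg/kg. Every library at 10 and at 30 µg/kg was below every vehicle library, but only the difference at 30 µg/kg was called (log2 fold change -0.40, SE 0.19, adjusted p = 0.278 at 10 µg/kg and log2 fold change -0.93, SE 0.19, adjusted p = 0.00063 at 30 µg/kg). Slc22a18 fell from 593 ± 39.0 CPM to 424 ± 59.9 CPM at 30 µg/kg, again with no overlap (log2 fold change -0.48, SE 0.07, adjusted p = 6.1e-06). Slc22a12 (URAT1) averaged 1037 ± 107 CPM in vehicle kidneys, 1104 ± 191 CPM at 30 µg/kg, and was not called (log2 fold change 0.09, SE 0.09, adjusted p = 0.55). Slc22a23, an orphan carrier, was called for the trend over doses alone (0.05 log2 units per dose step, adjusted p = 0.0113), and at 30 µg/kg its adjusted p was 0.0516. Leaving out any of vehicle replicates 1 and 2 and replicates 1, 4 and 5 at 30 µg/kg gave a call there (adjusted p = 0.0229 to 0.04). Its trend call was lost with the level of the inner medulla genes as a covariate and without the 30 µg/kg group.

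Chromosome 19 carries 11 of the 62 members, 10 of them Slc22a genes, and holds a rodent OAT group, Slc22a19 and Slc22a26 to Slc22a30. Of these 6, Slc22a28 and Slc22a30 fell at 30 µg/kg, Slc22a27 was called higher, and Slc22a19, Slc22a26 and Slc22a29 were not called. Slc22a30 held 159, 162, 259, 219 and 179 CPM in vehicle, 175 to 248 CPM with a median of 215 over the lower doses, 176, 124, 176, 131 and 163 CPM at 10 µg/kg and 156, 113, 18.0, 18.5 and 39.2 CPM at 30 µg/kg, all 5 of the last below vehicle (log2 fold change -1.51, SE 0.33, adjusted p = 0.00149). Slc22a28 held 219.7, 212, 257, 236 and 202 CPM in vehicle, 177 to 258 CPM with a median of 215 over the lower doses, 185, 128, 179, 122 and 179 CPM at 10 µg/kg and 204, 171, 34.9, 30.8 and 53.1 CPM at 30 µg/kg. Its replicate 1 at 30 µg/kg lay within the vehicle range and the other 4 below it (log2 fold change -1.19, SE 0.30, adjusted p = 0.00481).

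Slc22a27 rose from a very low level. It had 0, 0, 0.302, 0.460 and 0.510 CPM in vehicle, 0.0527 to 0.717 CPM with a median of 0.291 over the lower doses, 0, 0.240, 0.283, 0.118 and 0.246 CPM at 10 µg/kg and 0.511, 0.566, 2.58, 2.58 and 1.76 CPM at 30 µg/kg. The 5 libraries at 30 µg/kg lay above all vehicle libraries, replicate 1 only just (log2 fold change 2.64, SE 0.73, adjusted p = 0.00803). The call was lost without vehicle replicates 1 and 2, both at 0 (log2 fold change 1.90, adjusted p = 0.0977). Slc22a29, outside the rule for named genes and picked after its values were seen, was not called with all libraries (log2 fold change 0.55, SE 0.32, adjusted p = 0.266) and was called higher without vehicle replicates 1 and 2 (log2 fold change 1.26, adjusted p = 0.00773). Counts of this group are uncertain: 37.0% of the 100-base windows of Slc22a28, 21.1% of Slc22a30, 7.51% of Slc22a29 and 7.31% of Slc22a27 recur in other genes of the group. The part of such shared reads in these values was not tested.

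Slc22a14, on chromosome 9 and best known from the testis, rose at 30 µg/kg from a low level. Values were 0.691, 0.507, 0.734, 0.657 and 1.13 CPM in vehicle, 0.605 to 2.20 CPM with a median of 1.21 over the lower doses, 1.98, 1.10, 1.25, 1.18 and 1.18 CPM at 10 µg/kg and 2.95, 1.13, 2.71, 3.42 and 3.82 CPM at 30 µg/kg. Replicate 2 at 30 µg/kg lay within the vehicle range and the other 4 above it (log2 fold change 1.91, SE 0.35, adjusted p = 9.56e-05).

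The route for organic cations runs from basolateral OCTs to luminal MATE1. Slc22a2 (OCT2) fell at 30 µg/kg, with 294, 319, 398, 389 and 348 CPM in vehicle and 328, 278, 169.6, 193 and 223 CPM at 30 µg/kg, 4 of 5 below vehicle (log2 fold change -0.55, SE 0.10, adjusted p = 0.000153). Slc47a1 (MATE1) fell from 852, 854, 846, 877 and 834 CPM in vehicle to 682, 772, 545, 480.3 and 486 CPM at 30 µg/kg with no overlap (log2 fold change -0.52, SE 0.08, adjusted p = 6.46e-06).

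Of the OCTN carriers, Slc22a5 (OCTN2), which recovers carnitine from the filtrate, rose at 30 µg/kg from 274 ± 22.3 to 379 ± 122 CPM (log2 fold change 0.47, SE 0.11, adjusted p = 0.00173). Its values of 283, 364, 571, 411 and 269 CPM spread widely: replicate 3 was the highest, and replicates 1 and 5 lay within the vehicle range of 243 to 301 CPM. Of the 100-base windows of Slc22a5 transcripts, 12.9% recur in Slc22a21, also on chromosome 11, and the part of such shared reads was not tested. Slc22a4 (OCTN1, ergothioneine uptake) fell at 10 µg/kg (log2 fold change -0.29, SE 0.08, adjusted p = 0.0269) and 30 µg/kg (log2 fold change -0.39, SE 0.08, adjusted p = 0.000503), to 39.2, 47.5, 40.7, 40.4 and 42.5 CPM against 54.3, 48.1, 51.0, 57.5 and 64.8 CPM in vehicle. The call at 10 µg/kg was lost on leaving out any of vehicle replicates 4 and 5 and replicates 1, 2, 4 and 5 of that dose, with adjusted p-values of up to 0.125, and that at 30 µg/kg was kept in all 10 such fits. Slc22a5 and Slc22a4, both on chromosome 11, moved in opposite directions, and both have the core GCGTG before the start, 2 matches each in the windows shown. Slc22a4 has 2 further matches within the 50 bases after the start.
Slc22a5, chr11:53891704-53891953: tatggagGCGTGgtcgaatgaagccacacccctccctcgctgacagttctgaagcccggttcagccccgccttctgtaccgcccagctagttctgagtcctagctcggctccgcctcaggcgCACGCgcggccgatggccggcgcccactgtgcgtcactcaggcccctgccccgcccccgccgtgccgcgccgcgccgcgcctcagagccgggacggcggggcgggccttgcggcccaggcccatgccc
Slc22a4, chr11:54028105-54028354: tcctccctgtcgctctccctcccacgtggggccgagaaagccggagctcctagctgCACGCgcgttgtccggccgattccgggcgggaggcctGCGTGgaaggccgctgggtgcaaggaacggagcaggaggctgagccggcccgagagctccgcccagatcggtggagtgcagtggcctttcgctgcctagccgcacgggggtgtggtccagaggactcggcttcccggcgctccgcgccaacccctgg

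The share of promoters with the core was described for the whole family. A promoter was in the table for 50 of the 62 members, and GCGTG was found on either strand of the 300-base window in 11 of them (22%), against 35.2% of 27025 genes. TNGCGTG, which contains the core, was found in 1 of 50 (2%) against 5.84% of genes. Among transporters with a promoter in the table the core was present in 2 of 9 that rose at 30 µg/kg (Abcc4 and Slc22a5) and 1 of 10 that fell (Slc22a4). Abcc3 has no entry in the table.

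Among the OATPs, Slco1a1, a luminal carrier of steroid conjugates known to be higher in male than in female mouse kidney, had the largest fall of all members. Vehicle libraries held 116, 90.8, 294, 284 and 171 CPM, those at the lower doses 96.7 to 291 CPM with a median of 203, and those at 10 µg/kg 148, 100.2, 113, 71.3 and 129 CPM. At 30 µg/kg the values were 66.9, 50.0, 0.678, 1.01 and 5.39 CPM. All 5 were below vehicle, and replicates 3, 4 and 5 were far below replicates 1 and 2 (log2 fold change -2.95, SE 0.60, adjusted p = 0.000617). Leaving out replicate 1 of that dose gave a log2 fold change of -3.75, and leaving out vehicle replicates 1 and 2 gave -3.34, adjusted p = 0.000448. Slco1a1 was not called for a trend over doses (adjusted p = 0.0703).

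Slco1a6, also on chromosome 6, fell less, from 225 ± 20.9 to 143 ± 41.7 CPM (log2 fold change -0.65, SE 0.12, adjusted p = 0.000197). The log2 ratio of Slco1a1 to Slco1a6 ran from -1.31 to 0.35 in vehicle and from -7.64 to -1.36 at 30 µg/kg (mean difference -4.01, exact two-sided permutation test, p = 0.00794, 0.0106 after adjustment over the 4 pairs). This pair too was chosen after its values were seen, so its p-values cannot serve as a test. Slco3a1, a widely expressed prostaglandin and thyroid hormone carrier, held 163, 159, 226, 245 and 224 CPM in vehicle, 194 to 258 CPM with a median of 219.8 over the lower doses, 183, 173, 214, 156 and 185 CPM at 10 µg/kg and 149, 132, 52.1, 69.0 and 90.2 CPM at 30 µg/kg. The 5 libraries of the highest dose were all below vehicle (log2 fold change -1.04, SE 0.17, adjusted p = 2.75e-05).

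Abcc4 was also compared with Abcc2, luminal pumps that both rose, a pair chosen after its values were seen. Their log2 ratio rose by 1.93 at 30 µg/kg, from -3.12 to -2.64 in vehicle libraries to -1.60 to -0.57 (exact two-sided permutation test, p = 0.00794, 0.0106 after adjustment), with all 5 ratios at 30 µg/kg above all 5 in vehicle. Because of that choice these p-values cannot serve as a test either.

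Libraries at 30 µg/kg differed from each other in a shared way. Slco1a1, Slc22a28, Slc22a30, Slc22a6, Slc22a22, Slco3a1 and Slc47a1 were lower in replicates 3, 4 and 5 than in replicates 1 and 2, and Abcc4 and Abcc3 were higher. Genes known to respond to androgens in the mouse kidney followed the same order. With Slc22a30 set aside, 15 genes of that list were tested, 3 rose and 11 fell at 30 µg/kg, and their summed level was 21492, 15527, 5123, 7235 and 7817 CPM in replicates 1 to 5, against 19001, 18214, 31185, 28515 and 22607 CPM in vehicle. Kap, the most abundant of them, fell from 15256 ± 5599 to 6488 ± 5510.1 CPM. The genes that rose were Prlr and Slc7a12, both known to be higher in female than in male mouse kidney, and Gsta2. The lists share genes: Slc7a12 is also on the S3 list and Gsta2 on the list of NRF2 target genes below. Each is counted there as a rise again. Target genes of the aryl hydrocarbon receptor summed to 3272, 2438, 2498, 3552 and 3088 CPM in replicates 1 to 5. Most of these sums was Cyp1a1, with 2537 ± 436 CPM at 30 µg/kg. The parts of androgen response and of the receptor in the changes of these transporters were not tested.

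**Figure D5:**
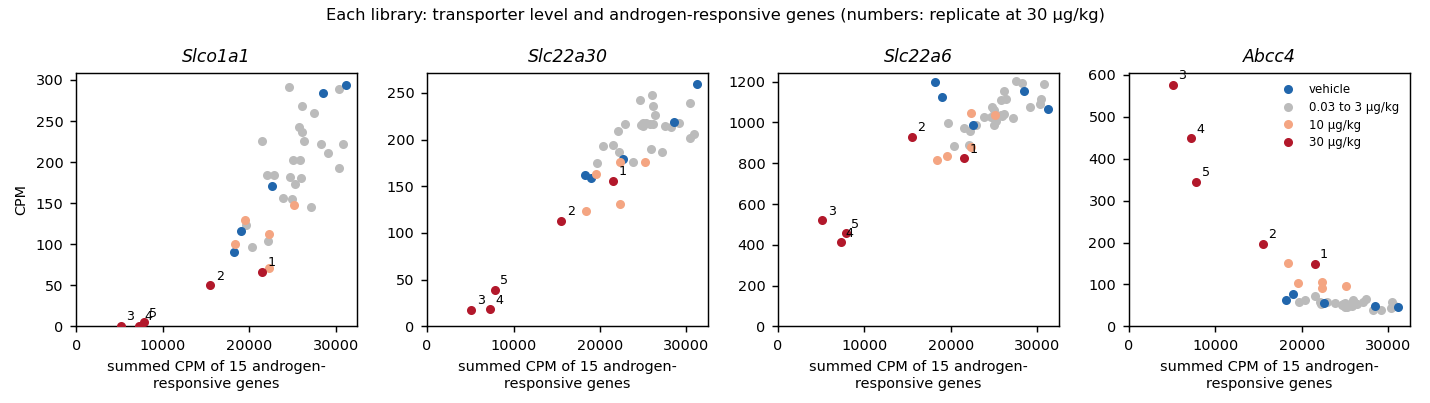
CPM of 4 transporters against the summed CPM of 15 androgen-responsive genes, 1 point for each of the 40 libraries, with replicates at 30 µg/kg numbered. Replicates 3, 4 and 5 at 30 µg/kg have the lowest sums (5123 to 7817 CPM), the lowest Slco1a1, Slc22a30 and Slc22a6 and the highest Abcc4.

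The 2 highest doses were also compared directly, in the fit over all 40 libraries, whose spread was estimated with the vehicle libraries included. Of 51 transporters 10 differed between 30 and 10 µg/kg (background 2.7%), 3 higher (background 1.19%) and 7 lower (1.52%). Higher at 30 µg/kg were Abcc4 (log2 fold change 1.64, SE 0.22, adjusted p = 0.000131), Abcc3 (log2 fold change 1.36, SE 0.24, adjusted p = 0.000951) and Slc22a27 (log2 fold change 3.15, SE 0.75, adjusted p = 0.011). Lower were Slco1a1 (-2.18, adjusted p = 0.0345), Slc22a30 (-1.16, 0.0495), Slco3a1 (-0.89, 0.00226), Slc22a6 (-0.55, 0.0181), Slc22a2 (-0.47, 0.00717), Slc47a1 (-0.36, 0.00724) and Slc22a18 (-0.30, 0.015). Slco2a1, Slco2b1 and Abcc9 did not differ detectably between these doses, with log2 differences of 0.08 (SE 0.11), 0.07 (SE 0.13) and -0.27 (SE 0.18). With the 10 libraries of these doses alone in the fit, edgeR called none of the 51 (16 had an unadjusted p under 0.05), DESeq2 with all libraries called 13, and without replicates 3 and 4 at 10 µg/kg, the libraries with unlike file names, 4 were called. The count was 21 without replicate 1 at 30 µg/kg, 5 without replicate 3 or replicate 4 of that dose, and 6 without replicate 3 at 10 µg/kg. The share of all genes called is not given for these other fits. Single libraries decided several calls: Slco1a1 was lost in 7 of 10 omissions, Slc22a30 in 8, Slc22a6 in 5 and Slc22a18 in 4, with adjusted p-values of up to 0.104, 0.174, 0.109 and 0.0796. Slc47a1 was lost without replicate 4 at 30 µg/kg (adjusted p = 0.0501) and Slc22a27 without replicate 3 (0.0568).

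A trend across all 8 groups in order of dose was called for 23 transporters (background 19.8%), 11 rising (background 11%) and 12 falling (8.84%). With all libraries it included all members called at 30 µg/kg but Slco1a1, and in addition Slc22a23 and Abcb8. With the 30 µg/kg group left out, 7 were called, 4 rising and 3 falling. The share of all genes called in that fit is not given, so the 7 cannot be set against a background. Abcc4 had the steepest slope of those rising, 0.33 log2 units per dose step (adjusted p = 3.06e-07). The trend of Slc22a30 was lost in 27 of 40 omissions of a single library (adjusted p up to 0.101), and that of Slc22a27 without replicate 4 at 30 µg/kg (0.0521).

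Other carriers and scaffolds of organic ion handling were followed as a list of 25 genes, 24 of them tested. Of these 6 rose and 5 fell at 30 µg/kg, with a median log2 fold change of -0.0973. Slc17a3 and Slc17a1, luminal phosphate and urate carriers, fell from 614 ± 72.1 to 332 ± 171 CPM and from 598 ± 56.6 to 417 ± 90.9 CPM (log2 fold changes -0.89 and -0.52, adjusted p = 0.00058 and 9.93e-05), and Slc29a3, a nucleoside carrier, fell by a log2 fold change of -0.46 (adjusted p = 0.00177). Slc51a, a subunit of the basolateral bile acid and steroid carrier, rose from 54.1 ± 5.91 to 88.7 ± 29.4 CPM (log2 fold change 0.71, adjusted p = 0.00358). Slc17a4 rose from 5.78 ± 2.09 to 10.2 ± 4.53 CPM and Slc17a2 from 0.157 ± 0.142 to 0.712 ± 0.541 CPM (adjusted p = 0.0247 and 0.0402). The changes of Slc17a1 and Slc17a3 and of Slc17a2 and Slc17a4 ran in opposite directions within 1 gene family.

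Of 17 transcription factors and receptors known to control such transporters, 16 were tested, 3 rose and 1 fell at 30 µg/kg. Prlr, the prolactin receptor, which is also on the androgen list, rose from 13.5 ± 4.73 to 96.3 ± 35.1 CPM (log2 fold change 2.84, adjusted p = 4.04e-07) and was called at 10 µg/kg as well (log2 fold change 2.20). Nfe2l2, which encodes NRF2, rose from 101 ± 4.19 to 165 ± 17.8 CPM (log2 fold change 0.71, adjusted p = 5.25e-10), and Nr1i2, the pregnane X receptor gene, from 7.37 ± 3.03 to 11.8 ± 5.14 CPM (log2 fold change 0.67, adjusted p = 0.0446). Hnf4a, a proximal tubule factor, fell from 953 ± 60.5 to 807 ± 124 CPM (log2 fold change -0.24, adjusted p = 0.0243). Of 14 tested NRF2 target genes 8 rose and 2 fell, among them Nqo1, which is also a target of the aryl hydrocarbon receptor and rose from 48.1 ± 10.0 to 167 ± 61.7 CPM.

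Lists of nephron segments moved less evenly. At 30 µg/kg, of 12 S1 and S2 genes 3 rose and 4 fell, of 12 S3 genes 1 rose and 6 fell, and of 11 tested genes of the distal tubule and collecting duct 6 fell. No gene of the 7 for the thick ascending limb was called, and 1 of 8 inner medulla genes fell. With the mean level of the inner medulla list as a covariate, 24 transporters were called at 30 µg/kg, all 22 of the main comparison among them, and Abcg2 was 1 of the 2 added (log2 fold change -0.26, adjusted p = 0.00432). The part of segment makeup in the change of any single transporter was not tested.

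Without vehicle replicates 1 and 2, 23 transporters were called at 30 µg/kg, 11 higher and 12 lower, 19 of them shared with the full comparison. Abcb10, Abcc9 and Slc22a27 were lost, and Slc22a8, Slc22a23 and Slc22a29 (higher) and Slc22a19 (lower) were gained. Without replicates 2 and 3 at 30 µg/kg as well, 21 were called and 20 were shared. Abcb10 and Slc22a27 were lost and Abcg2 (lower) was gained.

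The remaining 20 tested transporters were called in no comparison with all libraries. Their log2 fold changes at 30 µg/kg ran from -1.11 to 0.86, both for genes near 1 CPM or below. Slc47a2 (MATE2) had 0.173, 0.507, 1.30, 0.723 and 0.567 CPM in vehicle and 0.398, 0, 0.136, 0 and 0.879 CPM at 30 µg/kg, and Slc22a3 (OCT3) 0.691, 0.659, 0.346, 1.51 and 0.567 and 1.42, 2.60, 0.678, 1.23 and 0.840 CPM. Among the better expressed, Abcc5 had 0.20, Abcc10 0.20 and Slc22a17, the receptor for lipocalin-iron complexes, 0.09.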

How the data were processed

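Gene counts of 40 kidney RNA libraries were used as the authors deposited them, as whole-number counts per gene, with the column that does not separate strands. Per the submitters' processing notes, FastQC 0.11.7, Trimmomatic 0.39, STAR 2.7.3a and DESeq2 were used, and the builds GRCm39 and mm10 were both named without a role, so no coordinates were taken from the files. Per the labels' protocols, RNA had an integrity number of at least 7 and reads were paired, 150 bases long. Rows for unmapped (1.41% to 2.66%), multimapping (6.98% to 9.7%), featureless (5.28% to 7.27%) and ambiguous reads (5.4% to 5.98%) were left out of totals. The deposited table of log2-like values for the whole series was not used.

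Genes were tested with edgeR 4.0.16 in R 4.3.3 (filterByExpr, TMM factors of 0.966 to 1.09, robust quasi-likelihood fit over 8 groups of 5 libraries, prior count 0.125), with p-values adjusted by Benjamini-Hochberg over 17345 genes. The contrasts were each dose against vehicle, 30 against 10 µg/kg, and a trend over the dose rank. SE is the log2 fold change divided by the square root of F. CPM are counts per 1000000 gene counts, scaled by TMM factors, and fold changes of genes near 0 depend on the prior count. Ratios were compared by an exact permutation test, which does not account for the choice of the pairs by their values. The fit was also run on simulated counts with the same spread for every gene and no outlying library. That run does not show how the fit behaves with such libraries or with genes near 0. The labels number each library and describe it as a mouse kidney without further identity, so p-values measure the spread between these samples.

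The rule for named genes took 19 fixed members and every member called in any comparison, 31 in all (some items are not reported here), and gives values per library for the 12 called members with the largest change at 30 µg/kg. From the lists of other transporters and of regulators, at most 6 genes called at 30 µg/kg are named by size. The members and lists were chosen with earlier results of these data known. Alternatives were DESeq2 1.42.0, its size factors, no filter, the sense-strand column, covariates, and omitted libraries. Promoter sequences are from RefSeq (GRCm38.p6).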

Additional observations from a re-analysis of the deposited data

Results flagged for a closer look

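In 18 of 248 groups of 5 libraries, the highest or lowest CPM of a named transporter was set apart from the other 4 by over 0.71 of the group's range. The nominal expectation was about 12.4, for normally distributed values and independent groups. The transporters share the same libraries, so 18 cannot be judged against that figure. Abcb1b accounted for the largest gaps, which were 66.6 CPM for replicate 1 of 0.03 µg/kg (next 9.17) and 77.8 CPM for replicate 4 of 1 µg/kg (next 9.84), and replicate 5 of 0.3 µg/kg was also high with 9.94 CPM (next 7.4). The libraries with 66.6 and 77.8 CPM were those with 468 and 538 CPM of adipocyte and adrenal cortex markers, against at most 144 CPM in the other 38, and the part of adrenal tissue in these values was not tested.

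Replicate 4 at 1 µg/kg, the library with 538 CPM of these markers, was apart in 2 more transporters, with Abcc3 high at 7.63 CPM (next 4.92) and Abcc2 low at 356 CPM (next 440), and at that dose Slc22a6 was low at 886 CPM in replicate 2 (next 1020). Replicate 3 at 10 µg/kg had the highest Slc22a4, 55 CPM (next 44.6), and the lowest Slc22a5, 279 CPM (next 297). Also at 10 µg/kg, Abcc4 was high at 151 CPM in replicate 2 (next 106), and replicate 1 was high in Slc22a14 at 1.98 CPM (next 1.25) and in Slco2a1 at 46.9 CPM (next 42.4).

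Replicate 3 at 0.3 µg/kg was low in Abcb10 at 27.8 CPM (next 35.7) and high in Slc47a1 at 936 CPM (next 872). At the same dose Slc22a14 was high at 2.2 CPM in replicate 5 (next 1.05) and Slc22a8 at 664 CPM in replicate 4 (next 610). Slc22a23 was low in replicate 1 of the 0.1 µg/kg group, with 95.9 CPM (next 119), and in replicate 5 of the 3 µg/kg group, with 104 CPM (next 118). Slco4c1 was high in replicate 4 of the 0.1 µg/kg group, with 40.5 CPM (next 33.5).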

How the results depend on the processing

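No paired analysis was possible because the labels give no replicate numbers. The count of transporters called at 30 µg/kg was 22, 22 to 24 on leaving out any single library of the groups compared, and 11 with only the groups compared in the fit. That fit has fewer samples and takes the spread from the compared groups alone. The part of each in the lower count was not tested. At 10 µg/kg it was 6, and 3 to 6 on leaving out a library, with the lowest count without replicate 2 of that dose. At 3 µg/kg it was 1, 0 to 2 on leaving out a library, and 0 with no filter on low counts, with the sense-strand column, without vehicle replicates 1 and 2 together, with only the groups compared, and without the 2 libraries with adrenal transcripts (7, 5, 2, 5 and 6 at an unadjusted p under 0.05). The trend count was 23, 21 to 24 on leaving out a library, and 7 without the 30 µg/kg group. Between 10 and 30 µg/kg it was 10, 5 to 21 on leaving out a library (highest without replicate 1 at 30 µg/kg), 4 without the 2 libraries with unlike file names and 0 with only the groups compared. Slco4c1 changed sign from 0.02 to -0.53 without vehicle replicates 1 and 2, to -0.12 also without replicates 2 and 3 at 30 µg/kg, and to -0.22, -0.21, -0.11 and -0.23 without vehicle replicate 1, vehicle replicate 2, and replicates 1 and 5 at 30 µg/kg (range over single omissions -0.23 to 0.33), and the cause was not tested. Leaving libraries out together was chosen after seeing the data. For all fits other than the main one, the share of all genes called is not given, so their counts cannot be set against a background. Over the named transporters at 30 µg/kg, 295 of the values with 1 library left out kept direction and call, 3 lost and 8 gained a call, and 4 reversed. Under the other settings 283 kept both, 16 lost and 7 gained a call, and 2 reversed. Counting noise limits transporters near 1 CPM most.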
